A study of Mus musculus with 6 samples.

Results

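The genes described here are 36 neural lineage genes, 35 of them coding for transcription factors and 1, Tubb3, for a neuronal tubulin. They were taken by name from a list of neural genes, out of 53390 mouse genes to which transcripts could be assigned, of which 18177 had enough counts to be tested. Expression was measured by stranded RNA-seq, after poly(A) selection, in TKO mESCs, a mouse embryonic stem cell line without functional Dnmt1, Dnmt3a and Dnmt3b, the enzymes that methylate DNA. The comparison asks how these genes differ between both culture media in cells that cannot methylate DNA. TKO-serum cells (3 libraries) were grown in medium with 15% FCS and LIF at 500 U/ml. TKO-2i cells (3 libraries) were grown without serum in N2B27 medium with the MEK inhibitor PD0325901 at 1 µM, the GSK3 inhibitor CHIR99021 at 3 µM and LIF at 1000 U/ml. Both groups carry the same knockout, so no library has an intact set of these enzymes, and the inhibitors, the serum, the base medium and the LIF dose change together and cannot be told apart. TKO is a single line made from male J1 cells of the 129S4/SvJae strain and grown on gelatin without feeder cells, and its replicates are labelled biological replicates. Each library was made from 500 ng of RNA. Total estimated counts were 46228700, 44180642 and 43896549 for replicates 1, 2 and 3 of TKO-2i, then 38274042, 51932739 and 44827609 in TKO-serum replicates 1, 2 and 3.

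Neural cell identity is laid down in steps by transcription factors. Sox and Pax proteins hold progenitors in a neural state, basic helix-loop-helix (bHLH) proteins such as the neurogenins push progenitors to become neurons, and homeodomain proteins divide the neural tube into regions. Pluripotent cells keep most of these genes at low levels, many of them under polycomb repression, and cultures in serum are known to be more mixed than cultures in 2i.

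The libraries had the transcripts of pluripotent cells. Pou5f1, the central pluripotency factor, had mean CPM (library-scaled counts) of 1196 in TKO-2i and 1356 in TKO-serum. Its log2 fold change of TKO-2i over TKO-serum was -0.18 (SE 0.08, edgeR adjusted p = 0.093). The 10 pluripotency markers summed to 5726, 5314 and 5228 TPM (a level per transcript length) in TKO-2i and to 6444, 6123 and 6224 TPM in TKO-serum, with Dppa5a as the most abundant. Of the 10, 4 were lower (Sox2, Zfp42, Utf1 and Tdgf1) and 4 higher in TKO-2i, where 30.6% and 31.9% of all tested genes were lower and higher. The 4 that rose were Tfcp2l1, Klf4, Nanog and Esrrb, with log2 fold changes of 1.96, 0.80, 0.60 and 0.33. Nanog lies on chromosome 6, whose tested genes had a median log2 fold change of 0.41. DNA copy number in these cultures was not tested. Dcx, a protein of migrating neurons, had 0, 1 and 1 counts in TKO-2i and 2, 2 and 2 in TKO-serum, and the glial gene S100b had 0 counts in 5 of the 6 libraries and 1 in the other. Other neural markers were expressed, such as Stmn2 at mean CPM of 68.4 in TKO-2i and 269.1 in TKO-serum, and Tubb2b at 536.2 and 448.3. As these are bulk libraries, fewer cells of a type and less RNA per cell cannot be told apart. The knockout genes cannot check the labels, since all 6 libraries share the knockout. Transcripts of all 3 were present, at mean CPM of 152.8 in TKO-2i and 129.1 in TKO-serum for Dnmt1, 7.32 and 30.1 for Dnmt3a and 20 and 43.1 for Dnmt3b.

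Of the 36 genes, 25 passed the count filter and 11 did not. Among the 25, 20 were lower in TKO-2i with an edgeR adjusted p under 0.05, where 30.6% of all tested genes were lower, and 5 were higher, where 31.9% of all tested genes were higher. Among tested genes with a mean under 1 CPM, which is the range of many neural genes, 36.3% were lower and 12.1% higher. These counts leave out genes that are near 0 in both media, and 8 of the 25 passed in every library of a single medium and in no library of the other, which fixes their direction but not their call. Irx1, Lhx5, Lmx1a, Neurod1, Neurog1, Neurog3 and Nkx2-2 passed through TKO-serum alone and Dlx1 through TKO-2i alone. The median log2 fold change of the 25 was -1.37, beside 0.01 over all tested genes and -0.37 over tested genes with a mean under 1 CPM. At an adjusted p under 0.05 and an absolute log2 fold change above 2, 7 members were lower and 2 higher, and 9.19% of all tested genes passed in either direction. When genes with fewer than 10 counts in any library were removed, 17 members could be tested, of which 13 were lower and 4 higher. With that filter 4 members passed the larger cut-off, and with limma on log2(TPM + 1), where small levels give small changes, 2 did.

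**Figure D1:**
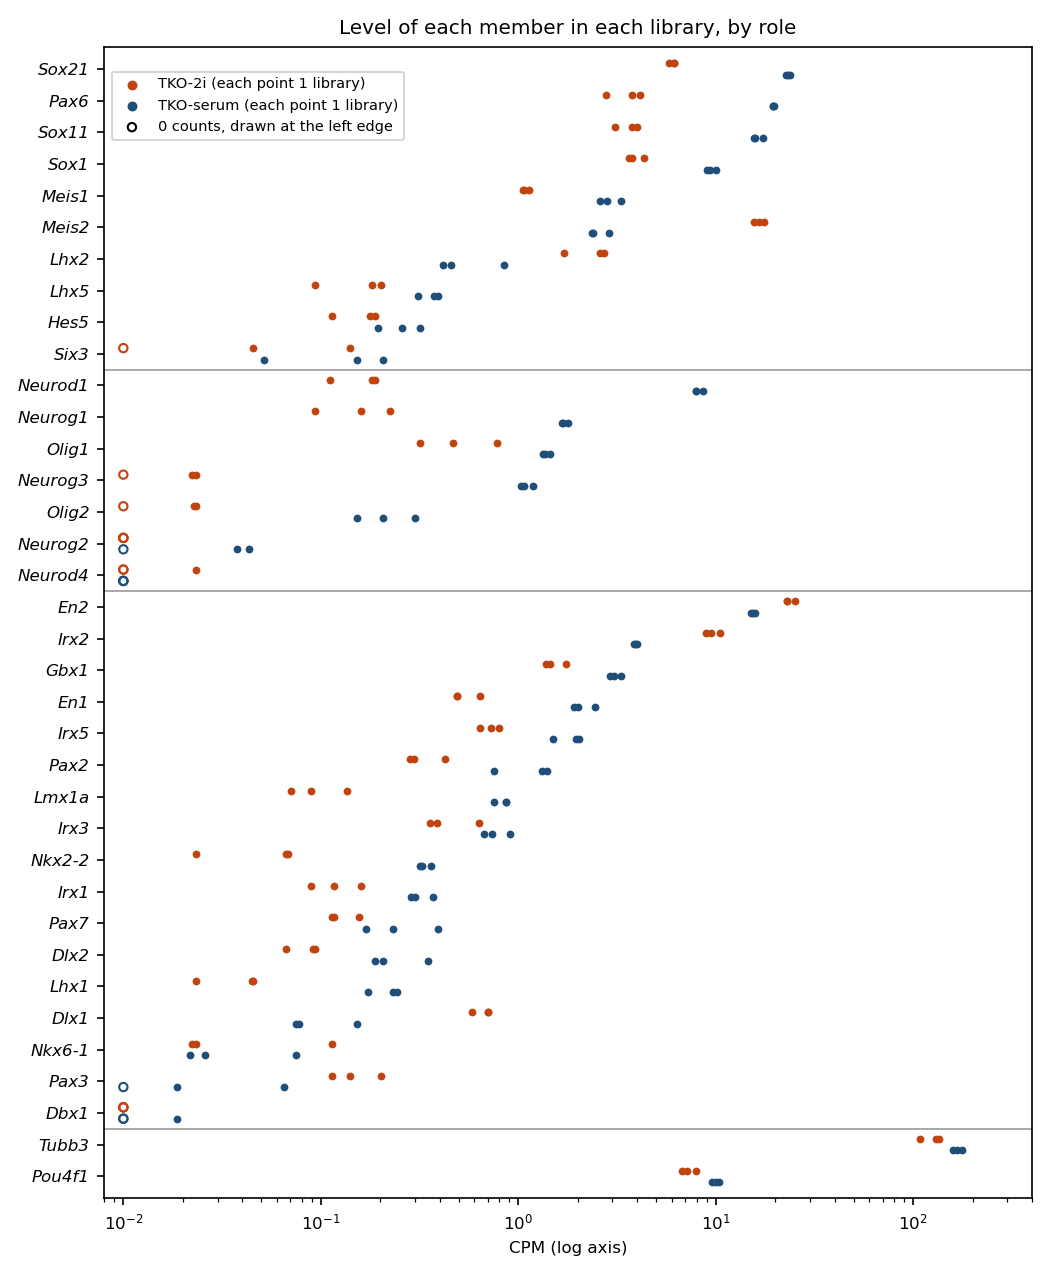
Level of each of the 36 genes in each of the 6 libraries, in CPM on a log axis, with TKO-2i in orange and TKO-serum in blue, grouped by role from progenitor factors at the top to neuronal genes at the bottom, and with libraries at 0 counts drawn as open circles at the left edge. Most genes lie further left in TKO-2i, while Meis2, Lhx2, En2, Irx2, Dlx1 and Pax3 lie further right.

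The level per length set the genes apart by orders of magnitude. In TKO-serum, Tubb3 had 111.0 ± 0.856 TPM (SD, n = 3), followed by Sox21 at 12.1 ± 0.868 TPM, Pax6 at 11.9 ± 0.475 TPM, Pou4f1 at 10.4 ± 0.986 TPM and En2 at 9.53 ± 0.225 TPM. The levels of Sox21 and Pax6 did not differ beyond their spread, nor did those of Pou4f1 and En2. In TKO-2i, Tubb3 had 75.5 ± 1.21 TPM, followed by En2 at 13.2 ± 0.989 TPM, Irx2 at 11 ± 1.47 TPM, Meis2 at 7.62 ± 0.894 TPM and Pou4f1 at 6.35 ± 0.695 TPM. A mean of at least 1 TPM was reached by 17 of the 36 genes in TKO-serum and by 9 in TKO-2i. Without Tubb3, the genes summed to 48.8, 56.0 and 47.3 TPM in the TKO-2i replicates and to 71.9, 81.0 and 79.1 TPM in the TKO-serum replicates.

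Of the 10 progenitor factors, 6 were lower in TKO-2i, 2 were higher and 2 were not tested, where 30.6% and 31.9% of all tested genes were lower and higher. Sox21, Sox11 and Sox1 are HMG-box proteins of neural progenitors and young neurons. Sox21 (ENSMUSG00000061517) had 6.14, 6.14 and 5.79 CPM in TKO-2i and 22.6, 23.8 and 23.3 CPM in TKO-serum. Every TKO-serum library was well above every TKO-2i library, and the log2 fold change was -1.95 (SE 0.06, edgeR adjusted p = 1.1e-07). Sox11 had 3.10, 3.77 and 3.99 CPM in TKO-2i and 15.8, 17.4 and 15.7 CPM in TKO-serum, with a log2 fold change of -2.17 (SE 0.10, edgeR adjusted p = 6.6e-07). Sox1, among the earliest markers of neural commitment, had 4.35, 3.75 and 3.63 CPM in TKO-2i and 9.41, 10 and 9.05 CPM in TKO-serum, with a log2 fold change of -1.28 (SE 0.10, edgeR adjusted p = 8.2e-06). The replicates of each medium lay close together for all 3 Sox genes and the media did not overlap. Their relatives Sox2 and Sox3, which also serve pluripotent cells, fell by 0.41 and 1.07 on the log2 scale.

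Pax6, which directs eye and forebrain development, had 3.75, 4.12 and 2.77 CPM in TKO-2i and 19.6, 19.5 and 19.5 CPM in TKO-serum. The TKO-serum libraries were nearly equal and about 5.52 times the TKO-2i mean, with a log2 fold change of -2.46 (SE 0.13, edgeR adjusted p = 9e-07). Its transcripts did not all fall alike. GENCODE M21 lists 26 Pax6 transcripts, of which 4 start between positions 105668900 and 105668935 of chromosome 2 (GRCm38) and the others from position 105671860 on. The distal starts had 0, 9 and 15 estimated counts in TKO-2i replicates 1, 2 and 3 and 297, 320 and 316 in the TKO-serum replicates. The other starts had 168, 172 and 103 counts in TKO-2i and 459, 718 and 581 in TKO-serum. The distal starts thus gave 5.85% ± 6.18 (SD, n = 3) of Pax6 counts in TKO-2i and 35.1% ± 4.22 in TKO-serum, and no TKO-2i library reached the lowest TKO-serum share of 30.8%. The 0 in TKO-2i replicate 1 allows a share of up to 1.78%. In CPM the distal starts had 0, 0.216 and 0.341 in TKO-2i, too few counts for a stable ratio, and 7.71, 6.02 and 6.87 in TKO-serum. This division was chosen after the values were seen and has no test, and the quantifier's split of reads among overlapping transcripts is uncertain, with some single Pax6 transcripts at 0 in 1 replicate and over 90 counts in another.

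**Figure D2:**
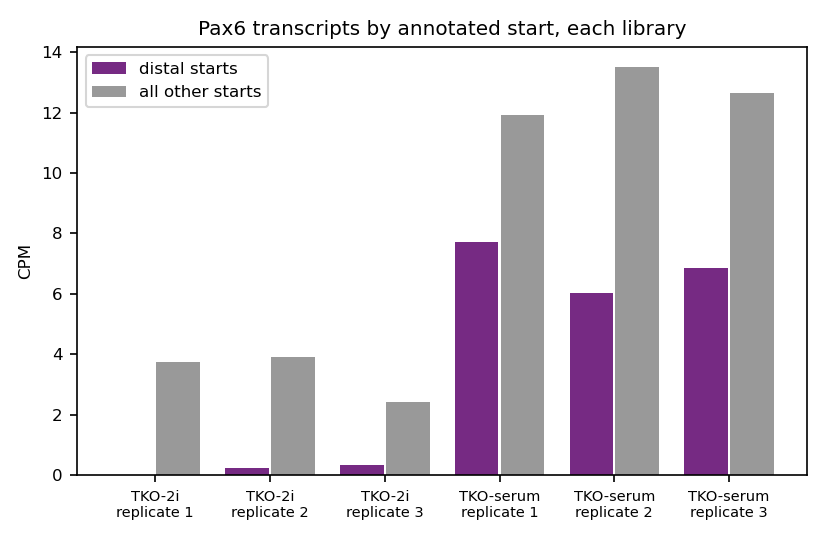
CPM of Pax6 transcripts in each library, divided into the 4 transcripts that begin at the distal starts (purple) and all others (grey), with 1 pair of bars per library. The distal starts gave 0 to 12.3% of Pax6 counts in the TKO-2i libraries and 30.8% to 39.3% in the TKO-serum libraries.

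The Meis genes, homeodomain partners of Pbx and Hox proteins, moved in opposite directions. Meis2 had 16.5, 17.6 and 15.6 CPM in TKO-2i and 2.36, 2.89 and 2.39 CPM in TKO-serum, and Meis1 had 1.07, 1.14 and 1.06 CPM in TKO-2i and 2.59, 2.80 and 3.33 CPM in TKO-serum. Meis2 was 6.5 times as high in TKO-2i (log2 fold change 2.69, SE 0.10, edgeR adjusted p = 2e-07). Meis1 fell by 1.42 on the log2 scale (SE 0.15, edgeR adjusted p = 5.4e-05). It lies on chromosome 11, whose 1399 tested genes had a median log2 fold change of 0.26. A share of 9.51% of the 31-base words of Meis1 also occurs in other genes, mainly Gm37818, so some of its counts are uncertain. Meis3, the other member of the family, had a log2 fold change of 0.15 (SE 0.11, edgeR adjusted p = 0.26).

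Lhx2, a LIM-homeodomain factor of the forebrain and eye field, had 2.59, 2.73 and 1.71 CPM in TKO-2i and 0.415, 0.846 and 0.457 CPM in TKO-serum, with a log2 fold change of 1.99 (SE 0.30, edgeR adjusted p = 0.00043). The media did not overlap, though the spread in each was wide. Lhx5, expressed in the anterior neural plate, had 9, 8 and 4 counts in TKO-2i and 12, 20 and 18 in TKO-serum. Its log2 fold change was -1.17 (SE 0.34, edgeR adjusted p = 0.015), a call that was lost with DESeq2 (adjusted p = 0.06) and when TKO-2i replicate 3, TKO-serum replicate 2 or TKO-serum replicate 3 was left out (edgeR adjusted p = 0.057, 0.054 and 0.058), in a range of 0.014 to 0.06 over all settings. Hes5, a Notch target of neural stem cells, had 8, 5 and 8 counts in TKO-2i and 10, 17 and 9 in TKO-serum, and Six3, a forebrain factor, had 0, 2 and 6 and then 2, 11 and 7. Neither of the latter genes passed the filter.

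The deepest falls among the tested members were those of the bHLH factors Neurog3, Neurod1 and Neurog1. These genes passed the filter through TKO-serum alone, which fixes their direction but not their call. Of the 7 bHLH factors, 4 were lower in TKO-2i and 3 were not tested. Over all tested genes 30.6% were lower, and over those with a mean under 1 CPM 36.3%. Neurod1 (ENSMUSG00000034701), which drives neuronal and endocrine differentiation, had 5, 8 and 8 counts in TKO-2i and 308, 422 and 396 in TKO-serum, or 0.160 ± 0.0424 CPM (SD, n = 3) and 8.18 ± 0.381 CPM. It was thus 51.0 times as high in TKO-serum (log2 fold change -5.65, SE 0.16, edgeR adjusted p = 6.3e-08). A share of 6.56% of its 31-base words also occurs in other genes, mainly Cerkl. Neurog1, a proneural factor of sensory lineages, had 10, 7 and 4 counts in TKO-2i and 64, 90 and 82 in TKO-serum, with a log2 fold change of -3.40 (SE 0.26, edgeR adjusted p = 8e-06). Neurog3, best known from the endocrine pancreas, was near the floor in TKO-2i, with 2 counts in all against 152 in TKO-serum. The ratio of TKO-serum to TKO-2i was 72.5, with an exact 95% interval of 19.7 to 604 from counting error alone (edgeR adjusted p = 5.7e-06). Over its protein-coding transcripts alone, with 1 count in TKO-2i, the ratio was 135, with an exact 95% interval of 23.8 to 5352. Neurog1 and Neurog3 share 0% of their 31-base words with other genes. Neurog2, in contrast, was at or near 0 in both media, with 0, 0 and 0 counts in TKO-2i and 0, 2 and 2 in TKO-serum, and Neurod4 had 1 count in 1 TKO-2i library and 0 in the other 5. The related Neurod2 and Neurod6 were also near 0, with at most 1 count in any library.

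Olig1 and Olig2, which specify oligodendrocytes and motor neurons, are neighbours on chromosome 16, with 41.1 kb between them. Olig1 had 35, 14 and 20 counts in TKO-2i and 53, 77 and 61 in TKO-serum, with a log2 fold change of -1.40 (SE 0.28, edgeR adjusted p = 0.0025). Olig2 had 0, 1 and 1 counts in TKO-2i and 8, 16 and 7 in TKO-serum, so that both were higher in every TKO-serum library. Olig2 did not pass the filter, and its ratio of TKO-serum to TKO-2i was 14.8, with an exact 95% interval of 3.76 to 128 from counting error alone. Olig3, on chromosome 10, had a log2 fold change of 0.32 (SE 0.22, edgeR adjusted p = 0.25).

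A further list of 10 genes holds dimerisation partners and inhibitors of bHLH factors, together with Rest and Rcor1, which repress neuronal genes. Of these, 3 were lower and 7 higher in TKO-2i, where 30.6% and 31.9% of all tested genes were lower and higher. Their median log2 fold change was 0.44, beside 0.01 over all tested genes. Id2 and Id1, which bind bHLH partners and keep them from DNA, fell by 4.53 and 2.52 on the log2 scale (SE 0.09 and 0.10, edgeR adjusted p = 1.6e-08 and 2.1e-07). Their relatives Id3 and Id4 rose, with log2 fold changes of 1.06 and 1.23. The E proteins Tcf3, Tcf4 and Tcf12, with which neurogenins pair, had log2 fold changes of 0.38, 0.54 and 0.38. Hes1, a repressor of proneural genes, had a log2 fold change of 0.94 and Hes6, which counters it, one of -0.35. Rest, the repressor of neuronal genes in other cells, fell by 0.41 on the log2 scale, from 347.3 CPM in TKO-serum to 262.3 CPM, and its corepressor Rcor1 had a log2 fold change of 0.51. All these genes except Hes6 are in the list of 10, and all had an edgeR adjusted p under 0.05. The 10 genes summed to 297.9, 325.8 and 306.4 TPM in TKO-2i and to 386.7, 390.8 and 376.9 TPM in TKO-serum, and Id1 was the most abundant in TKO-serum.

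Of the 17 regional homeodomain and paired-domain factors, 8 were lower in TKO-2i, 3 were higher and 6 were not tested. Over all tested genes 30.6% were lower and 31.9% higher, and over those with a mean under 1 CPM 36.3% and 12.1%. The engrailed genes, which pattern the midbrain and hindbrain, split. En2 had 25.2, 23.0 and 22.9 CPM in TKO-2i and 15.8, 15.2 and 15.5 CPM in TKO-serum, and En1 had 0.491, 0.637 and 0.492 CPM and then 2.44, 2.01 and 1.91 CPM. En2 was higher in every TKO-2i library (log2 fold change 0.61, SE 0.06, edgeR adjusted p = 4.8e-05), and En1 lower in every one (log2 fold change -1.96, SE 0.19, edgeR adjusted p = 3.4e-05). Gbx1, which acts beside them in the hindbrain and spinal cord, had 1.38, 1.75 and 1.45 CPM in TKO-2i and 2.93, 3.33 and 3.05 CPM in TKO-serum (log2 fold change -1.02, SE 0.14, edgeR adjusted p = 0.00024). Its relative Gbx2, also a factor of pluripotent cells, fell by 0.81 on the log2 scale.

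The Iroquois genes lie in clusters on chromosomes 13 and 8 and pattern the neural plate and heart. On chromosome 13, with 665.1 kb between them, Irx2 had 9.44, 8.98 and 10.6 CPM in TKO-2i and 3.86, 3.91 and 4.0 CPM in TKO-serum, and Irx1 had 4, 7 and 5 counts and then 11, 16 and 17 counts. Irx2 was higher (log2 fold change 1.30, SE 0.09, edgeR adjusted p = 5.4e-06) and Irx1 lower in every TKO-2i library (log2 fold change -1.37, SE 0.34, edgeR adjusted p = 0.007). Irx4, in the same cluster, was lower in TKO-2i with a log2 fold change of -2.81 (SE 0.41, edgeR adjusted p = 0.00041). On chromosome 8, Irx5 had 36, 28 and 31 counts in TKO-2i and 76, 80 and 93 in TKO-serum (log2 fold change -1.33, SE 0.19, edgeR adjusted p = 0.00035). Irx3 had 16, 17 and 27 counts in TKO-2i and 35, 39 and 31 in TKO-serum, with the closest libraries of both media nearly touching at 0.633 and 0.675 CPM. Its log2 fold change was -0.74 (SE 0.27, edgeR adjusted p = 0.042), and the call was lost in several alternative settings. With DESeq2 the adjusted p was 0.075, and with edgeR it was 0.05 with the replicate number in the model, 0.11 without TKO-2i replicate 1, 0.097 without TKO-2i replicate 2, and 0.13, 0.087 and 0.064 without TKO-serum replicates 1, 2 and 3, in a range of 0.011 to 0.13 over all settings. Irx6 had at most 7 counts in any library and was not tested.

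Dlx1 and Dlx2, forebrain interneuron factors with 9.43 kb between them on chromosome 2, also differed in direction. Dlx1 had 26, 31 and 30 counts in TKO-2i and 3, 4 and 7 in TKO-serum, and Dlx2 had 3, 4 and 4 counts and then 8, 10 and 16 counts. Dlx1 was higher in every TKO-2i library (log2 fold change 2.67, SE 0.33, edgeR adjusted p = 0.00014), while Dlx2, which did not pass the filter, was higher in every TKO-serum library. Of the Dlx1 counts, the protein-coding transcript Dlx1-201 took 23, 24 and 13 in TKO-2i and 0, 2 and 0 in TKO-serum. Over its protein-coding transcripts alone the ratio of TKO-2i to TKO-serum was 31.4, with an exact 95% interval of 8.33 to 266 from counting error alone, and over all its transcripts it was 6.51. Dlx5 had at most 4 counts in any library, and Dlx6 had 11, 18 and 8 counts in TKO-2i and 5, 7 and 7 in TKO-serum, and neither was tested.

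Set against its relative, each rising gene of these families shifted in the same way in the 3 replicates. The log2 ratio of CPM rose from TKO-serum to TKO-2i by 4.30 for Dlx1 over Dlx2, by 4.12 for Meis2 over Meis1, by 3.33 for Lhx2 over Lhx5, by 2.71 for Irx2 over Irx1 and by 2.59 for En2 over En1. These 5 pairs were chosen after their values were seen, so the ratios have no test. The sizes of some rest on few counts. Dlx2 was near the floor in TKO-2i, with 3, 4 and 4 counts, and Dlx1 had 3, 4 and 7 counts in TKO-serum. Irx1 and Lhx5 had fewer than 10 counts in every TKO-2i library.

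The paired-domain members other than Pax6 had means under 1 TPM in both media. Pax2, a factor of the midbrain boundary and kidney, had 19, 13 and 12 counts in TKO-2i and 29, 70 and 64 in TKO-serum, with a log2 fold change of -1.79 (SE 0.31, edgeR adjusted p = 0.00095). Pax3, of the dorsal neural tube and neural crest, had 9, 5 and 6 counts in TKO-2i and 0, 1 and 3 in TKO-serum, and its close relative Pax7 had 7, 5 and 5 and then 9, 9 and 18. Neither passed the filter, and Pax3 was the only one of the 11 untested members that was higher in every TKO-2i library. Pax5 and Pax8 were lower in TKO-2i, with log2 fold changes of -0.76 and -1.98.

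The remaining regional members were Lmx1a, Nkx2-2, Lhx1, Nkx6-1 and Dbx1, of which the latter 3 were not tested. Lmx1a, a factor of the roof plate and of dopaminergic progenitors, had 4, 6 and 3 counts in TKO-2i and 29, 46 and 40 in TKO-serum (log2 fold change -3.04, SE 0.29, edgeR adjusted p = 3.4e-05). Nkx2-2, which specifies ventral interneurons, had 3, 3 and 1 counts in TKO-2i, at the floor, and 14, 17 and 15 in TKO-serum (log2 fold change -2.59, SE 0.40, edgeR adjusted p = 0.00055). Both had all TKO-serum libraries above all TKO-2i libraries. Lhx1, on chromosome 11, had 2, 2 and 1 counts in TKO-2i and 9, 13 and 8 in TKO-serum. Nkx6-1, a motor neuron progenitor factor, had 1, 5 and 1 counts and then 1, 4 and 1, and Dbx1, of a neighbouring progenitor domain, had 1 count in 1 TKO-serum library and 0 in the other 5. The media overlapped for Nkx6-1 and Dbx1. Of their relatives, Lmx1b fell by 0.65, Dbx2 by 1.86 and Nkx2-9 by 2.76 on the log2 scale, and Nkx6-2 reached 20.6 CPM against 4.88 CPM in TKO-serum (log2 fold change 2.08, SE 0.14, edgeR adjusted p = 4.6e-06).

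Pou4f1 and Tubb3, which mark neurons, changed least among the members that fell. Pou4f1, a POU factor of sensory neurons, had 7.18, 7.98 and 6.73 CPM in TKO-2i and 9.57, 10.1 and 10.4 CPM in TKO-serum (log2 fold change -0.46, SE 0.09, edgeR adjusted p = 0.0017). Tubb3 had 134.7, 108.8 and 130.6 CPM in TKO-2i and 177.5, 158.3 and 167.0 CPM in TKO-serum (log2 fold change -0.43, SE 0.09, edgeR adjusted p = 0.0027). Both were higher in every TKO-serum library, and 3.21% of the 31-base words of Tubb3 also occur in other genes, mainly tubulins. The tubulin gene Tubb2b went the other way, with a log2 fold change of 0.26 (SE 0.08, edgeR adjusted p = 0.025).

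**Figure D3:**
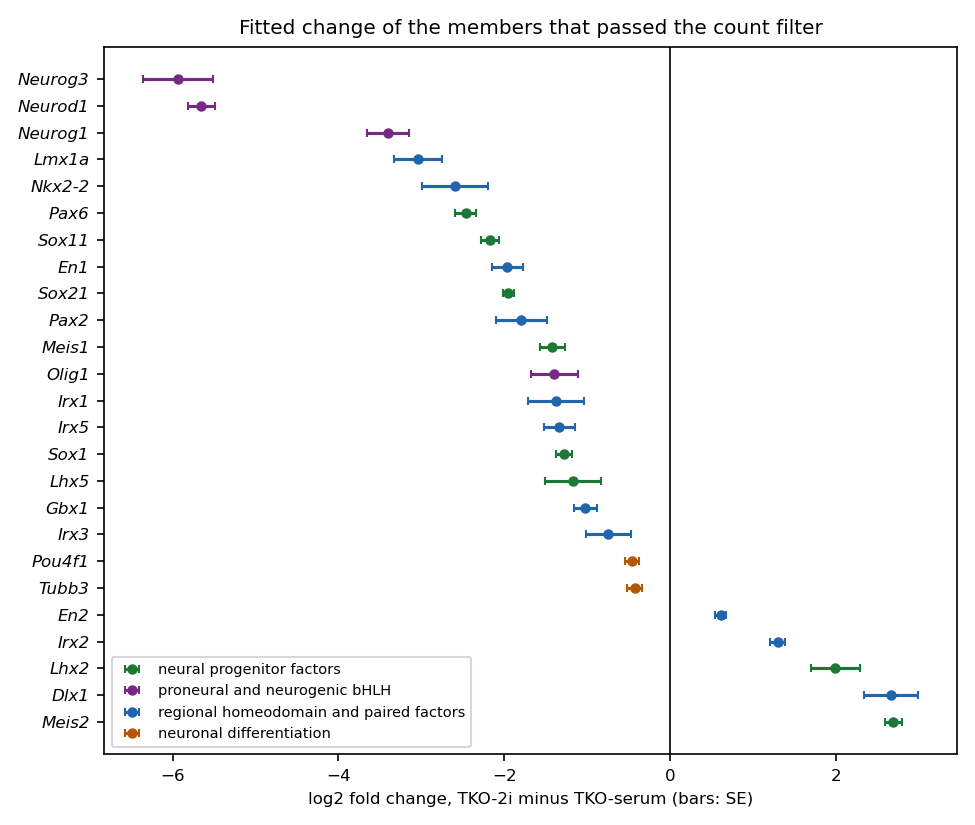
Fitted log2 fold change of TKO-2i minus TKO-serum for the 25 genes that passed the count filter, as points with SE bars, coloured by role. The values run from -5.94 for Neurog3, whose fitted size depends on how 2 counts in TKO-2i are treated, to 2.69 for Meis2.

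Members near the floor of 3 counts per library, or under a mean of 0.1 CPM, numbered 11 in TKO-2i and 5 in TKO-serum. Dbx1, Neurod4, Neurog2 and Nkx6-1 were so in both media, Pax3 in TKO-serum alone, and Dlx2, Lhx1, Lmx1a, Neurog3, Nkx2-2, Olig2 and Six3 in TKO-2i alone. A count of 3 corresponds to between 0.0564 and 0.0778 CPM in these libraries, a limit that covers counting error only. Without the count filter, 4 of the 11 untested genes had an edgeR adjusted p under 0.05. Dlx2, Lhx1 and Olig2 were lower in TKO-2i (adjusted p = 0.023, 0.0032 and 0.00073 from edgeR) and Pax3 was higher (edgeR adjusted p = 0.031). For the other 7 no difference was detectable at this depth.

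Other neural transcription factors were listed beside the members. Of 70 further genes, 51 were tested, and 33 were lower and 10 higher in TKO-2i with an edgeR adjusted p under 0.05. Over all tested genes 30.6% were lower and 31.9% higher, and over those with a mean under 1 CPM 36.3% and 12.1%. They summed to 373.3, 397.1 and 371.1 TPM in TKO-2i and to 529.9, 576.9 and 539.2 TPM in TKO-serum, with Sox2 as the most abundant. Their median log2 fold change was -0.76, beside 0.01 over all tested genes. The number that were higher was 6 without TKO-serum replicate 1. When genes with fewer than 10 counts in any library were removed, 22 were lower and 8 higher. Genes that passed the filter through a single medium, which fixes their direction, were not separated in these counts. The largest falls among those with a mean of at least 1 CPM were those of Insm1, a zinc-finger factor of neuroendocrine cells, Sox4, Otx2 and Pou3f1. Insm1 had 4, 2 and 3 counts in TKO-2i and 180, 303 and 226 in TKO-serum, with a log2 fold change of -6.16 (SE 0.22, edgeR adjusted p = 1.6e-07). It passed the filter through TKO-serum alone, which fixes its direction but not its call. The log2 fold changes of Sox4, Otx2 and Pou3f1 were -3.59, -3.01 and -2.77. The largest rises were those of Vax2 (3.96), Nkx6-2, Tfap2a (2.02) and Nr2f1 (1.53), with Vax2 on chromosome 6, whose 866 tested genes had a median log2 fold change of 0.41. Of the 70 genes, Sox2, with means of 162.6 TPM in TKO-2i and 240.8 TPM in TKO-serum, also counts among the pluripotency markers. Hes1 is also in the list of bHLH partners and inhibitors.

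RNAs transcribed next to or against members or their relatives Sox2, Otx2 and Dlx6 were mostly at the floor. Of 10 such RNAs, Sox1ot and Sox2ot were tested, and both were lower in TKO-2i, with log2 fold changes of -0.78 (SE 0.20, edgeR adjusted p = 0.0081) and -1.10 (SE 0.29, edgeR adjusted p = 0.01). Otx2os1 had 0 counts in TKO-2i and 3, 11 and 6 in TKO-serum, and was thus at least 1.97 times as high in TKO-serum against the floor per library. Six3os1 had 7, 14 and 7 counts in TKO-2i and 8, 6 and 6 in TKO-serum. Dlx1as, Pax6os1, Lhx1os, Nkx2-2os, Irx3os and Dlx6os1 had at most 3 counts in any library. The 10 RNAs summed to 0.558, 1.55 and 0.816 TPM in TKO-2i and to 1.78, 2.38 and 2.16 TPM in TKO-serum, mostly from Sox2ot.

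Of 18 neural structural markers, 14 were tested, and 8 were lower and 5 higher in TKO-2i, where 30.6% and 31.9% of all tested genes were lower and higher. Their median log2 fold change was -1.39, beside 0.01 over all tested genes. They summed to 424.7, 416.2 and 411.6 TPM in TKO-2i and to 555.6, 543.8 and 555.9 TPM in TKO-serum, with Tubb2b as the most abundant. The glial transporter gene Slc1a3 fell by 4.38 on the log2 scale, and the axonal genes Gap43 and Stmn2 and the RNA-binding protein gene Elavl4 fell by 3.64, 1.98 and 2.05. Slc1a3 passed the filter in every TKO-serum library and in no TKO-2i library, which fixes its direction but not its call. Msi1, Nes, Ncam1 and Cdh2 rose, with log2 fold changes of 1.25, 0.54, 0.57 and 0.31. Fabp7, a marker of radial glia, had 0, 0 and 1 counts in TKO-2i and 6, 6 and 2 in TKO-serum, and the synaptic gene Snap25 had 0, 2 and 2 and then 8, 11 and 13.

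Markers of other cell types differed between the media as well, where 30.6% of all tested genes were lower and 31.9% higher in TKO-2i. Of the markers counted below, Fgf5, Foxa2, Sox7, Zscan4c, Zfp352 and Tcstv3 passed the filter in every TKO-serum library and in no TKO-2i library, which fixes their direction. The 5 epiblast markers were all lower in TKO-2i and summed to 13.2, 16.4 and 15.8 TPM in TKO-2i and 62.2, 67.7 and 64.7 TPM in TKO-serum, where Otx2 was the most abundant. Of these 5, Otx2 and Pou3f1 also count among the 70 other neural factors, and Dnmt3b is a knocked-out gene of this line. Of 6 endoderm markers, 5 were lower, and their sums were 4.59, 5.59 and 4.52 TPM against 13.5, 16.8 and 18.0 TPM, with Dab2 as the most abundant in TKO-serum. Of 5 primitive streak and mesoderm markers, T, Eomes and Gsc were higher in TKO-2i, and the list summed to 21.5, 22.3 and 26.2 TPM in TKO-2i and 3.09, 3.36 and 3.44 TPM in TKO-serum, with T as the most abundant in TKO-2i. All 4 markers of 2-cell-like cells were lower in TKO-2i, at 0.362, 0.269 and 0.139 TPM in sum against 17.8, 19.6 and 18.7 TPM, with Zscan4c as the most abundant in TKO-serum. Of 4 trophoblast markers, Cdx2 was higher and Gata3 and Krt7 were lower, with sums of 4.05, 3.03 and 4.63 TPM in TKO-2i and 2.12, 2.12 and 1.87 TPM in TKO-serum, where Gata3 was the most abundant. The 6 fibroblast markers summed to 4.06, 4.79 and 4.53 TPM in TKO-2i and 5.77, 6.48 and 5.94 TPM in TKO-serum, mostly from Thy1. Of these, Thy1 and Col1a2 were lower in TKO-2i, with log2 fold changes of -0.42 and -1.55, and Dcn, not tested, had 0, 1 and 0 counts in TKO-2i and 11, 14 and 8 in TKO-serum. Col3a1 and Postn had at most 5 counts in any library. The part of any of these cell types in the levels of the neural genes was not tested.

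The windows before the starts of the members had a higher median CpG content than promoters over all genes. The promoter table used, made from RefSeq starts on GRCm38.p6, gave 34 windows of 250 bases for 29 of the 36 genes. It held no entry for En2, Irx1, Gbx1, Irx5, Pax3, Olig1 and Lhx5, which RefSeq does list as genes. The median GC content was 65.0%, beside 52.4% over 32851 promoters of all genes, and the median ratio of observed to expected CpG was 0.762, beside 0.373. Of the 34 windows, 7 lie wholly in annotated exons and 11 hold no exonic base, and the ratio was 0.790 over the 7 and 0.810 over the 11. Windows of all promoters were not screened for exons. This ratio was 0.775 over the 18 windows of genes lower in TKO-2i and 0.764 over the 5 windows of genes higher in TKO-2i. On either strand, GGGCGG was found in 55.9% of the members' windows and 32.7% of all promoters, CCAAT in 47.1% and 33.8%, TATAAA in 8.82% and 12.4%, and CAGNTG, a form of the site that bHLH proteins bind, in 23.5% and 44.8%. Over the 11 windows without exonic bases these shares were 72.7% for GGGCGG, 54.5% for CCAAT, 0% for TATAAA and 45.5% for CAGNTG. A match describes letters and does not show a bound site.

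Windows of 4 starts are given as examples that lie outside annotated exons, chosen after the values were seen, each 5′ to 3′ on the strand of its gene, from RefSeq on GRCm38.p6, with matches to these motifs on either strand in capitals. The first precedes the distal Pax6 start (chr2:105668646-105668895, plus strand), at which counts were almost absent in TKO-2i, and overlaps an intron of the antisense gene Pax6os1. The others precede Neurog1 (chr13:56252181-56252430, minus strand, between genes), Neurog3 (chr10:62132840-62133089, plus strand, within an intron of Fam241b) and Irx2 (chr13:72628570-72628819, plus strand, between genes).
Pax6 distal start: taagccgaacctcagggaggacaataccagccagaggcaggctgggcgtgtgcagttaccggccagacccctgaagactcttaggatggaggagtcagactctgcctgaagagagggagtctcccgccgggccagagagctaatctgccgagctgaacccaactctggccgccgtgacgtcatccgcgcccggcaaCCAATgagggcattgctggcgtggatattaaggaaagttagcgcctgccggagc
Neurog1: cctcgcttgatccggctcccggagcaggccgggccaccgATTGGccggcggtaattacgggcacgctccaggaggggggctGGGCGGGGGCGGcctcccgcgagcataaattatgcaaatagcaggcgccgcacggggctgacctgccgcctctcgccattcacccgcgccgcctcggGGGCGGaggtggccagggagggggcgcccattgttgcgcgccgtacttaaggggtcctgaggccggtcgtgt
Neurog3: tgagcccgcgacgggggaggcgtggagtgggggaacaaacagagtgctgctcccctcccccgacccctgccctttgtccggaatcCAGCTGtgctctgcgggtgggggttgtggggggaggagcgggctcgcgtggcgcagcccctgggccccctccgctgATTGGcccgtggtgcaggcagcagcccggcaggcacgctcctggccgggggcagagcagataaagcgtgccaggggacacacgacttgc
Irx2: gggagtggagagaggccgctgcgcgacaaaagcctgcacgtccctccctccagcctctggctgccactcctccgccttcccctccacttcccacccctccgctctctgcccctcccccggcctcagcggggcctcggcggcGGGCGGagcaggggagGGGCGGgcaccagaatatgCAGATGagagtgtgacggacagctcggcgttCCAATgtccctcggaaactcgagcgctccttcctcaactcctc
The Pax6 window held a single CCAAT, the Neurog1 window GGGCGG 3 times and CCAAT once, the Neurog3 window CCAAT and CAGNTG once each, and the Irx2 window GGGCGG in 2 places with 1 CCAAT and 1 CAGNTG.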

How the data were processed

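The authors deposited estimated counts and TPM per transcript for 6 libraries, in the columns a salmon-type quantifier writes. The quantifier and its index are not given in the sources used here. The deposited estimated counts are not normalized, and the deposited TPM are scaled for length. Of 136288 transcripts, 136100 were matched to GENCODE M21 (GRCm38) and summed to genes. Counts were rounded, genes were filtered with filterByExpr, and TMM set the library sizes. TKO-2i was tested against TKO-serum over all 18177 genes kept, with edgeR 4.0.16 (R 4.3.3, glmQLFit and glmQLFTest, Benjamini-Hochberg adjustment). SE is the absolute log2 fold change over the root of F. CPM use TMM-normalized library sizes. Members and lists were chosen with earlier results of these data known. Every member is named, every gene of lists of up to 12 was eligible, and of longer lists the 4 largest rises and 4 largest falls with a mean of at least 1 CPM and relatives of members. The structural markers Dcx, S100b, Fabp7 and Snap25, with means under 1 CPM, were named outside this rule. Alternatives were DESeq2 1.42.0, its size factors, a replicate block, other filters, length-scaled counts, limma 3.58.1, protein-coding transcripts alone and each library left out. Promoters came from RefSeq (GRCm38.p6). The p-values measure the spread between these cultures.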

Additional observations from a re-analysis of the deposited data

How the results depend on the processing

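The direction of each of the 25 tested members was the same in every setting that gave a value. The filter of at least 10 counts in every library left 8 of the 25 without one. Calls were lost for Irx3 and Lhx5 alone. With that filter 13 members were lower. It removed 6 of the 9 members past an absolute log2 fold change of 2, and 4 passed it, since En1 went from -1.96 to just under -2. With limma on log2(TPM + 1) 2 passed it, since the pseudocount shrinks changes of low genes. With single libraries left out, between 19 and 20 members were lower, 5 were higher, 10 to 11 passed the larger cut-off, 10152 to 12568 of all genes were called, and of the other neural factors 30 to 33 were lower and 6 to 10 higher. The median of chromosome 11 was 0.26, and 0.30 over genes with a mean of at least 1 CPM, and that of chromosome 6 was 0.41 and 0.50. With protein-coding transcripts alone, the log2 ratios of mean CPM moved by more than the replicate spread for Dlx1, from 2.70 to 5.0, and Neurog3, from -6.17 to -7.11, which then rest on 2 and 1 counts in the low group, and by less for the other 23 members. In a model blocked on replicate number, 12539 genes passed in place of 11361, with 19 members lower, 5 higher and 10 past the larger cut-off, 32 of the other factors lower and 10 higher, and Irx3 at an edgeR adjusted p of 0.05. Deviations of same-numbered samples correlated at 0.27, 0.37 and 0.03. The best match had the same number in 5 of 6 directions, the exception being TKO-2i replicate 3, which correlated best with TKO-serum replicate 1. Whether the numbers pair samples was not tested, and the main fit does not pair them. Depth limits the members with few counts, whose levels rest on a handful of reads.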
